A study of Mus musculus with 8 samples.

Results

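The 38 Hox cluster genes on the array were examined in mouse embryos at E9.5, in their posterior second heart field (pSHF). The pSHF is the mesenchyme behind the heart that supplies the atrial septum. Members were all spots whose gene name was Hoxa to Hoxd followed by a paralog number, without regard to their values, which gave 50 probes on 59 spots of 41174 probes and 27827 gene names in all. RNA of 4 pools of pSHF labelled Tbx5-/+, heterozygous for a mutation of the T-box factor Tbx5, was compared with RNA of 4 wild-type pools labelled Tbx5 WT. The mice were kept on a mixed background, the mothers of both groups were hormone-primed before mating, and the number of embryos in a pool is not given in the sources used here. Pools carried the embryo numbers 1, 5, 6 and 7 in both groups and are called here Tbx5-/+ 1, Tbx5 WT 1 and so on. Numbers 1 and 5 lay on one slide and numbers 6 and 7 on the other. The dissection took the foregut along and was meant to leave out the heart and the neural tube.

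Hox genes encode homeodomain transcription factors that give cells their position along the head to tail axis. They lie in clusters named HoxA to HoxD, in which genes with a low paralog number are switched on early and far forward and genes with a high number late and far back, an order called collinearity. Retinoic acid switches on the low-numbered genes in the second heart field, where Hoxb1 marks progenitors of the outflow tract and of the posterior pole of the heart. In the forelimb field, Hox proteins of paralog groups 4 and 5 act on an enhancer of Tbx5.

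Each probe is an oligonucleotide of 60 bases. Of the 8 genes that differed at an unadjusted p under 0.05 at any probe, Hoxa4 and Hoxb4 are shown by a probe that reads through the homeobox, the stretch that codes for the DNA-binding homeodomain. These oligos are printed because they decide which transcript each value counts. Capitals mark codons of the recognition helix, the part of the homeodomain that lies in the major groove, or, for Hoxa4, a run of codons in the first helix.
Hoxa4 (second probe): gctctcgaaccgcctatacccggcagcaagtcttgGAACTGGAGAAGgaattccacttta
Hoxb4: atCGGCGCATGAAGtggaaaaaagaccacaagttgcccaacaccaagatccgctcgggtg
On mm9 the Hoxa4 oligo lies at chr6:52140595-52140654 on the minus strand and the Hoxb4 oligo at chr11:96181521-96181580 on the plus strand.

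The second Hoxb3 probe also reads through the homeobox. The files pair the second Hoxb3 probe with a Hoxd3 transcript as well, so its signal cannot be assigned to Hoxb3 alone. No other Hox probe was paired with a second gene. Of the 50 probes, 46 matched their own symbol in RefSeq through the accession, 4 had no match, and 1, the second probe of Hoxb2, lies on the strand opposite to the HoxB genes.

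The arrays were read as follows. Values are background-subtracted signals on a log2 scale after variance-stabilizing normalization (VSN), so a difference of 1 is a 2-fold change. A spot was called well above background by the scanner software, which was the case for 45.0% to 52.8% of spots on Tbx5-/+ arrays and 50.9% to 63.6% on Tbx5 WT arrays. Tests were restricted to probes that had this mark on every array of 1 group or of both. The brighter of 2 Tbx5 probes differed by -2.12 (Tbx5-/+ minus Tbx5 WT, adjusted p = 0.0921, limma), with all 4 mutant arrays below all 4 wild-type arrays, and the other differed by -0.15. Whether either lies in the mutated part of the gene is not known. Of 12 pSHF marker genes, 11 were tested. The median difference over all 20028 probes tested was -0.19 (Tbx5-/+ minus Tbx5 WT), and no probe of any gene passed an adjusted p of 0.05.

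Detection followed the order of the clusters. Of paralog groups 1 to 3, 8 of 8 genes were tested, against 6 of 7 genes of paralog groups 4 and 5, 3 of 8 of groups 6 to 8, 1 of 4 of group 9 and 0 of 11 of groups 10 to 13. The last gene tested was Hoxa9 in HoxA, Hoxb7 in HoxB, Hoxc5 in HoxC and Hoxd4 in HoxD. By cluster, 7 of 11 HoxA genes, 7 of 10 HoxB genes, 1 of 8 HoxC genes and 3 of 9 HoxD genes were tested. In all, 18 genes with 22 probes were tested and 20 genes were not.

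**Figure D1:**
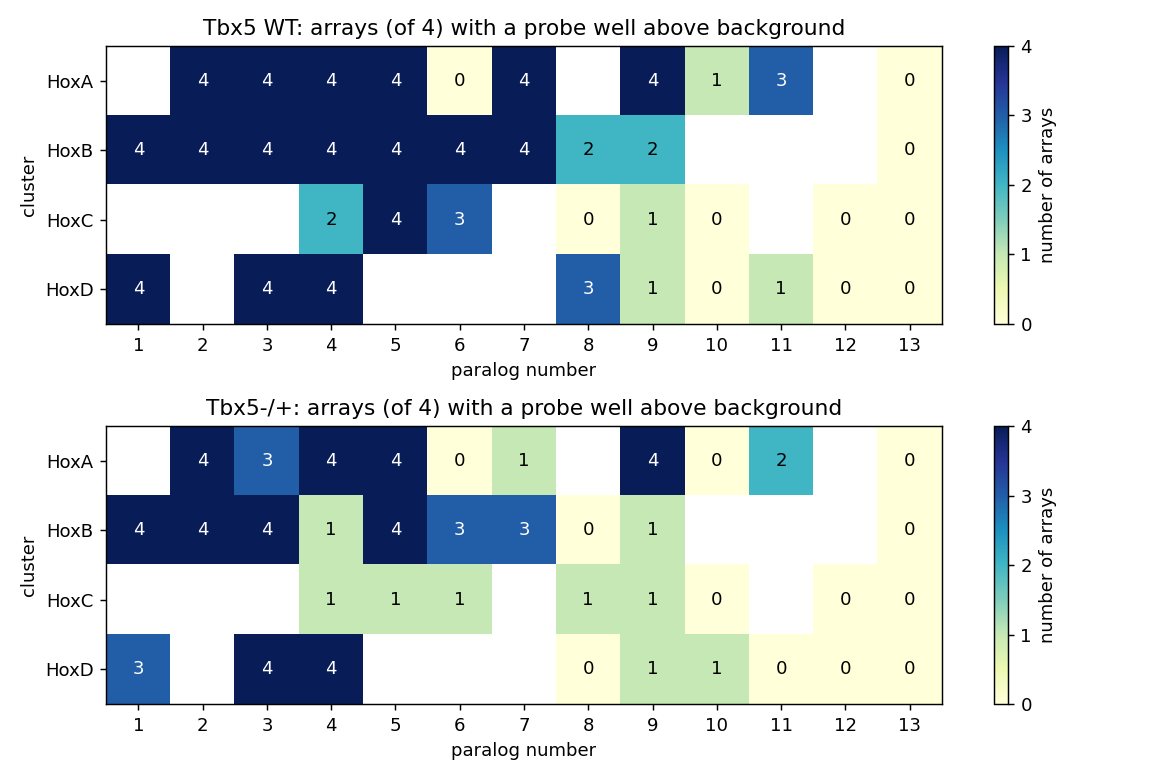
Number of arrays, of 4 in each group, on which at least 1 probe of a Hox gene was well above background, by cluster (rows) and paralog number (columns). White cells hold no gene of the array or a gene not reported here. Counts of 4 fill the low paralog numbers, no gene of groups 10 to 13 reached 4 in either group, and several genes with 4 in Tbx5 WT have 1 to 3 in Tbx5-/+.

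Among the 20 genes not tested, 8 were well above background on no array: Hoxa6, Hoxa13, Hoxb13, Hoxc10, Hoxc12, Hoxc13, Hoxd12 and Hoxd13. Hoxa6 was on no array although its neighbours Hoxa5 and Hoxa7 were tested, and its single probe lies at base 370 of the transcript. Hoxa11, a gene of the limb and the urogenital tract, broke the order at the far end, with 5 of 8 arrays (2 Tbx5-/+ and 3 Tbx5 WT). Hoxc6 was well above background on 4 arrays, of which 3 were Tbx5 WT. Hoxc4, Hoxb9 and Hoxd8 reached 3 arrays, and all 3 of Hoxd8 were Tbx5 WT. Hoxb8, Hoxc9 and Hoxd9 reached 2 arrays, and Hoxa10, Hoxc8, Hoxd10 and Hoxd11 reached 1. The number of Hox genes well above background was 13, 26, 13 and 16 on Tbx5-/+ 1, 5, 6 and 7, and 21, 24, 19 and 27 on the Tbx5 WT arrays of the same numbers. The groups overlapped, because Tbx5-/+ 5 had more than 3 of the 4 wild-type arrays.

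Of the 18 tested genes, each taken at its brightest tested probe, 15 were lower and 3 higher in Tbx5-/+. Their median difference was -0.73 against -0.19 over all probes tested. With each array centred on its own median, 13 were lower and 5 higher, and these medians became -0.41 and 0.13. The comparison is tilted by the choice of probes, since 7 of the 18 genes were well above background on all 4 wild-type arrays but not on all 4 mutant arrays, and none the other way. The 11 genes well above background on all 8 arrays had a median difference of -0.71 (9 lower, 2 higher), against -0.15 over the 16754 probes with that property. By embryo number, the median of the 18 differences between the 2 arrays was -0.85 for number 1, -0.47 for number 5, -0.48 for number 6 and -0.64 for number 7. In bulk tissue, fewer cells that express a gene and less RNA per cell cannot be told apart.

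No Hox gene passed an adjusted p of 0.05 (limma, Benjamini-Hochberg over 20028 probes), as 0% of all probes did. At an unadjusted p under 0.05, 6 of 18 genes were lower in Tbx5-/+ (Hoxa3, Hoxa9, Hoxb1, Hoxb4, Hoxc5 and Hoxd1) and none was higher, against 18.5% of all probes lower and 3.38% higher. Among the 11 genes well above background on all 8 arrays, 2 were lower at this level (Hoxa9 and Hoxb1), against 15.9% of the probes with that property, and none was higher, against 3.89%. All 4 mutant arrays lay below all 4 wild-type arrays for Hoxa3, Hoxa9, Hoxb4 and Hoxd1, against 8.98% of all probes, and the opposite arrangement was found for no Hox gene, against 0.744%. Hoxa3, Hoxb4 and Hoxd1 had entered the test through the wild-type arrays. Hoxa9 was the only one of the 11 genes well above background on all 8 arrays to be separated in this way. Same-numbered pools of both groups deviated together, though weakly for number 7. With the embryo number as a block in the fit 6 genes passed an adjusted p of 0.05 (Hoxa3, Hoxa9, Hoxb1, Hoxb3, Hoxb4 and Hoxd1), as 10.7% of all probes did with a lower value and 0.379% with a higher one. Of these genes, Hoxa9, Hoxb1 and Hoxb3 were among the 11 well above background on all 8 arrays.

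**Figure D2:**
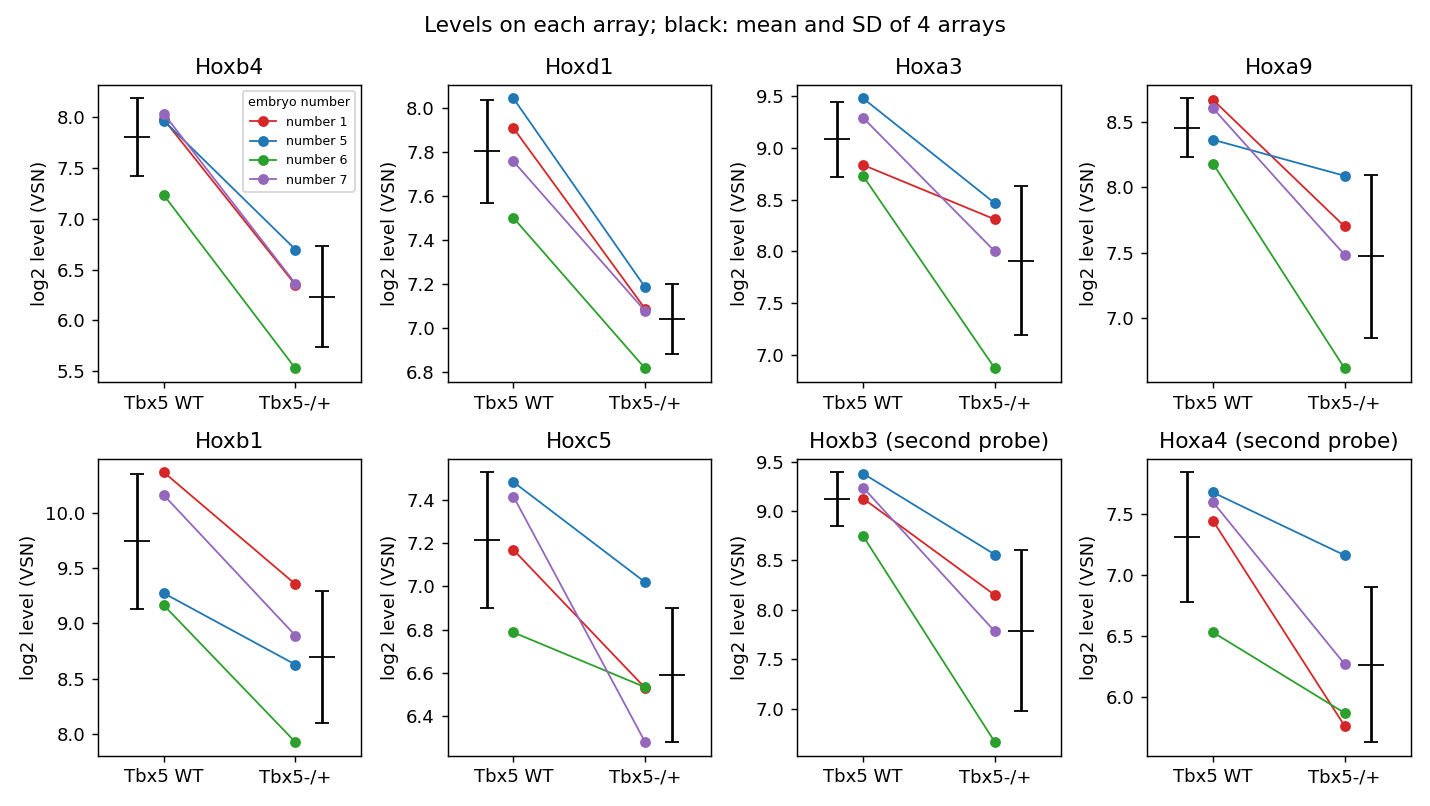
Level of the 8 Hox genes with an unadjusted p under 0.05 at a tested probe, in log2 units after VSN, with 1 point for each array and lines joining pools of the same embryo number. Black marks give the mean and SD of 4 arrays. Every line runs down from Tbx5 WT to Tbx5-/+, and the 2 groups of points do not overlap for Hoxb4, Hoxd1, Hoxa3, Hoxa9 and the second Hoxb3 probe.

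Hoxb4 acts in the hindbrain and in blood stem cells. It was well above background on 1 of 4 mutant arrays and entered the test through the wild-type arrays. Its level on Tbx5-/+ 1, 5, 6 and 7 was 6.35, 6.70, 5.53 and 6.36, and on Tbx5 WT 1, 5, 6 and 7 it was 7.98, 7.97, 7.23 and 8.03. Every mutant value lay below every wild-type value, and the difference within a number ran from -1.71 to -1.27. Tbx5-/+ averaged 6.23 ± 0.50 and Tbx5 WT 7.80 ± 0.38 (SD, n = 4 each), a difference of -1.57 with a standard error of 0.29. Its adjusted p was 0.0921 in limma, 0.0336 with the embryo number as a block and 0.0177 without Tbx5-/+ 1.

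Hoxd1, Hoxa3 and Hoxb1 belong to the genes with the most forward expression limits. Hoxd1 was at 7.09, 7.19, 6.82 and 7.08 on Tbx5-/+ 1, 5, 6 and 7 and at 7.91, 8.04, 7.50 and 7.76 on Tbx5 WT 1, 5, 6 and 7. The spread within both groups was small, and the difference was -0.76 with a standard error of 0.19 (adjusted p = 0.105 in limma, 0.0368 with the block, 0.0304 without Tbx5-/+ 1). It was well above background on 3 of 4 mutant arrays.

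Hoxa3, which patterns the pharyngeal arches and their glands, was at 8.31, 8.46, 6.87 and 7.999 on the Tbx5-/+ arrays and at 8.84, 9.48, 8.73 and 9.29 on the Tbx5 WT arrays of the same numbers. Tbx5-/+ 6 was the lowest array by more than 1, and the other 3 mutant arrays also lay below all wild-type arrays. The difference was -1.17 with a standard error of 0.35 (adjusted p = 0.147 in limma, 0.0356 with the block, 0.0444 without Tbx5-/+ 1). The gene's second, dimmer probe differed by -0.34 (adjusted p = 0.360), with overlapping groups.

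Hoxb1, which marks a hindbrain segment and second heart field progenitors, was measured on 10 spots. It was at 9.35, 8.63, 7.93 and 8.89 on the Tbx5-/+ arrays and at 10.37, 9.27, 9.16 and 10.16 on the Tbx5 WT arrays. The groups overlapped because Tbx5-/+ 1 lay above the wild-type arrays 5 and 6, while the difference within a number ran from -1.27 to -0.65. The difference was -1.04 with a standard error of 0.37 (adjusted p = 0.188 in limma, 0.0336 with the block, 0.0449 without Tbx5-/+ 1). Without Tbx5-/+ 1 the groups did not overlap for Hoxb1, which 21.9% of all probes then did with lower mutant values.

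Hoxa9, a regulator of blood progenitors and the highest-numbered gene tested, was at 7.70, 8.09, 6.62 and 7.48 on the Tbx5-/+ arrays and at 8.67, 8.36, 8.18 and 8.60 on the Tbx5 WT arrays. The groups did not overlap, although Tbx5-/+ 5, at 8.09, came close to Tbx5 WT 6, at 8.18. The difference was -0.98 with a standard error of 0.30 (adjusted p = 0.155 in limma, 0.0416 with the block, 0.0521 without Tbx5-/+ 1). Hoxc5, the only HoxC gene tested, was at 6.53, 7.02, 6.53 and 6.28 on the Tbx5-/+ arrays and at 7.17, 7.48, 6.79 and 7.41 on the Tbx5 WT arrays. Its groups overlapped and it was well above background on 1 of 4 mutant arrays. The difference was -0.62 with a standard error of 0.23 (adjusted p = 0.197 in limma, 0.0750 with the block).

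Hoxb3 and Hoxa4 reached an unadjusted p under 0.05 at their second probes, both of which read through the homeobox, and not at their brightest ones. The second Hoxb3 probe was at 8.15, 8.56, 6.66 and 7.78 on the Tbx5-/+ arrays and at 9.13, 9.38, 8.75 and 9.24 on the Tbx5 WT arrays, without overlap, and the difference was -1.33 with a standard error of 0.37 (adjusted p = 0.127 in limma, 0.0336 with the block). The brightest Hoxb3 probe differed by -0.92 with overlapping groups (adjusted p = 0.247 in limma, 0.0344 with the block). The second Hoxa4 probe was at 5.77, 7.16, 5.87 and 6.27 on the Tbx5-/+ arrays and at 7.44, 7.67, 6.53 and 7.59 on the Tbx5 WT arrays. Its groups overlapped, it was well above background on 1 of 4 mutant arrays, and the difference was -1.04 with a standard error of 0.36 (adjusted p = 0.181 in limma, 0.0393 with the block).

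For Hoxa3, Hoxa4 and Hoxb3, the genes with 2 tested probes on their own strand, the probes gave the same direction but unequal sizes. The files place the Hoxb3 probes at bases 1259 and 3147 of the transcript (differences -1.33 and -0.92), the Hoxa4 probes at bases 559 and 1358 (-1.04 and -0.74), and the Hoxa3 probes at bases 1110 and 1776 (-0.34 and -1.17). The probe nearer the 5′ end thus had the larger difference for Hoxb3 and Hoxa4 and the smaller one for Hoxa3. For Hoxb3 this is the probe whose signal cannot be assigned to Hoxb3 alone.

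Hoxa2, Hoxb2 and Hoxd3, of the forward groups, did not pass, and their groups overlapped. Hoxa2, which sets the identity of the second pharyngeal arch, differed by -0.15 (10.61 ± 0.46 in Tbx5-/+ against 10.76 ± 0.52 in Tbx5 WT, SD, n = 4 each). Hoxb2, a hindbrain gene, varied little, with 12.52 ± 0.19 against 12.45 ± 0.26, a difference of 0.07 and a 95% interval from -0.37 to 0.52. The Hoxb2 probe on the opposite strand differed by 0.32 and its signal cannot be assigned to Hoxb2. Hoxd3, which shapes the first neck vertebrae, differed by -0.36 (7.30 ± 0.31 against 7.66 ± 0.76). The difference of Hoxa2 turned positive when each array was centred on its own median (0.18).

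Of the 9 tested genes of paralog groups 4 to 7, Hoxa4, Hoxa5, Hoxa7, Hoxb5, Hoxb6 and Hoxb7 varied more between the mutant arrays than any other tested Hox gene. Hoxb4, Hoxc5 and Hoxd4 varied less (SD 0.50, 0.31 and 0.67). Tbx5-/+ 1 was the lowest of the 8 arrays for 6 of these 9 genes, against 29.4% of all probes tested, and for 1 of the 8 genes of groups 1 to 3. Relative to the wild-type mean, the median of the 9 genes was -1.67 on Tbx5-/+ 1, 0.36 on Tbx5-/+ 5, -0.68 on Tbx5-/+ 6 and -0.32 on Tbx5-/+ 7. For groups 1 to 3 it was -0.46, -0.39, -0.86 and -0.38 on the same arrays.

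**Figure D3:**
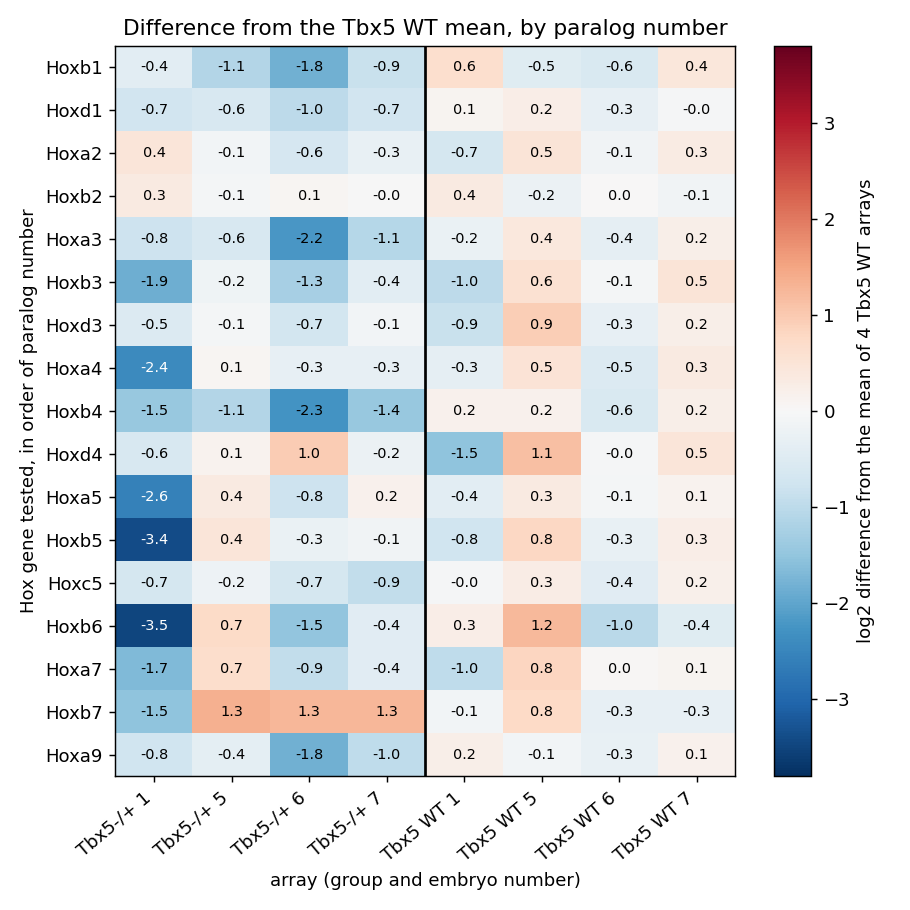
Level of 17 of the 18 tested Hox genes on each array minus the mean of the 4 Tbx5 WT arrays, in log2 units, with genes in order of paralog number from top to bottom and arrays in columns. The darkest cells are those of Hoxa4, Hoxa5, Hoxb5 and Hoxb6 on Tbx5-/+ 1, and Hoxb7 is above the wild-type mean on Tbx5-/+ 5, 6 and 7.

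Hoxb5, a gene of the forelimb level and the gut, was at 7.94 on Tbx5-/+ 1 and at 11.79, 11.08 and 11.22 on Tbx5-/+ 5, 6 and 7, against 10.58, 12.12, 11.07 and 11.61 on Tbx5 WT 1, 5, 6 and 7. Hoxb6 was at 6.52 on Tbx5-/+ 1 and at 10.74, 8.51 and 9.56 on the other mutant arrays, against 10.27, 11.23, 8.97 and 9.55. Tbx5-/+ 1 thus lay far below every other array for both genes. The differences were -0.84 for Hoxb5 and -1.17 for Hoxb6 (adjusted p = 0.494 and 0.384), and without Tbx5-/+ 1 they were 0.02 and -0.40.

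Hoxa5, needed for lung and airway growth, showed the same arrangement, with 6.50 on Tbx5-/+ 1 and 8.28 to 9.42 on the other 7 arrays. The brightest Hoxa4 probe was at 7.91 on Tbx5-/+ 1 and at 9.83 to 10.86 elsewhere. Their differences were -0.71 and -0.74 with all arrays and -0.09 and -0.18 without Tbx5-/+ 1. Hoxa7, well above background on 1 of 4 mutant arrays, had its lowest value of 5.52 on Tbx5-/+ 1, and its difference of -0.59 became -0.24 without that array. None of these genes passed in either fit.

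Hoxb7 went the other way. It was at 5.98 on Tbx5-/+ 1 but at 8.85, 8.77 and 8.79 on Tbx5-/+ 5, 6 and 7, against 7.40, 8.27, 7.20 and 7.20 on Tbx5 WT 1, 5, 6 and 7. With all 8 arrays its difference was 0.58 with overlapping groups (adjusted p = 0.562). Without Tbx5-/+ 1 it was 1.29 with no overlap (adjusted p = 0.0214), when 7.04% of all probes passed with a higher value and 16% did not overlap with higher mutant values. Hoxd4 followed neither direction, with means of 9.02 ± 0.67 and 8.96 ± 1.14 (SD, n = 4 each), a difference of 0.06. Its lowest array was Tbx5 WT 1 at 7.42.

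**Figure D4:**
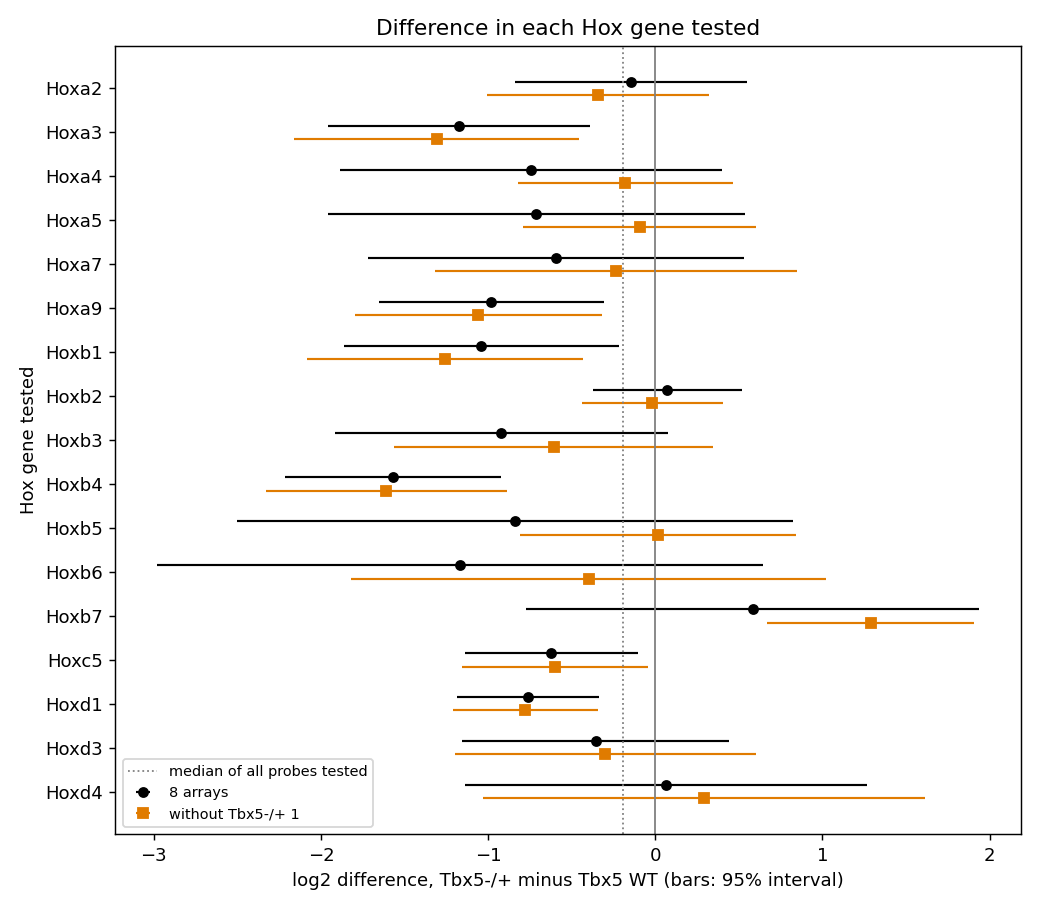
Difference in log2 level, Tbx5-/+ minus Tbx5 WT, with its 95% interval from limma for 17 of the 18 Hox genes tested, with all 8 arrays (black) and without Tbx5-/+ 1 (orange). The dotted line is the median over all probes tested, -0.19. Hoxb4, Hoxd1, Hoxa3, Hoxa9, Hoxb1 and Hoxc5 stay below 0 with both sets of arrays, and Hoxb7 lies above 0 without Tbx5-/+ 1.

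Without Tbx5-/+ 1, 5 of 18 genes passed an adjusted p of 0.05. Hoxa3, Hoxb1, Hoxb4 and Hoxd1 fell, against 12.1% of all probes, and Hoxb7 rose. Hoxa3, Hoxb4 and Hoxd1 had entered the test through the wild-type arrays, with 3, 1 and 3 mutant arrays well above background, and of the 11 genes well above background on all 8 arrays 1 fell (Hoxb1). The median difference of the 18 genes was then -0.37, against -0.16 over all probes.

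Other measures moved with these arrays, and their part in the Hox differences was not tested. The mean level of the 6 tested neural tube markers was 9.66 on Tbx5-/+ 1 and 8.19 to 8.79 on the other mutant arrays, and ranged from 7.73 to 10.07 on the wild-type arrays, with 1 of 14 markers (Sox1) on no array. That of 10 cardiomyocyte markers was 13.38 on Tbx5-/+ 1, the lowest of the 8 arrays, and 13.98 to 14.75 elsewhere. That of 6 somite markers ranged from 9.59 to 10.45 in Tbx5-/+ and from 8.97 to 10.74 in Tbx5 WT, with 2 of 10 (Myf5 and Mesp2) on no array. Egr2, the hindbrain and neural crest factor that drives Hoxb2, was at 10.86 on Tbx5-/+ 1 and at 6.44 to 7.27 on the other 7 arrays. Of 8 endothelium markers, 5 were lower and 3 higher in Tbx5-/+, 4 were lower at an unadjusted p under 0.05 (18.5% of all probes) and none passed the adjusted p. Their mean level was 9.91 to 10.65 in Tbx5-/+ and 10.69 to 10.97 in Tbx5 WT. Of 10 foregut endoderm markers, which the dissection took along, 8 were lower and 1 of them (Sox17) reached an unadjusted p under 0.05, with a median difference of -0.43 and a mean level of 10.80 to 11.10 in Tbx5-/+ and 11.05 to 11.58 in Tbx5 WT. The mean level of the 5 tested neural crest markers was 9.32 on Tbx5-/+ 1, the highest of the 8 arrays, 8.26 to 8.75 on the other mutant arrays and 8.62 to 9.28 on the wild-type arrays. The mean of the 11 tested pSHF markers, the mutated gene Tbx5 among them, was 9.57 to 10.27 in Tbx5-/+ and 10.46 to 11.12 in Tbx5 WT. Of these 11, 8 were lower and 3 higher, with a median difference of -0.49. Tbx5, Osr1, Foxf1 and Gata4 were lower at an unadjusted p under 0.05 (18.5% of all probes), and none passed the adjusted p. Osr1, Foxf1 and Gata4 had entered the test through the wild-type arrays. The mean of 6 primitive erythrocyte markers was 11.60 to 13.95 in Tbx5-/+ and 11.66 to 13.78 in Tbx5 WT.

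Signal at 5′ probes relative to 3′ probes of the same transcript also differed. Over 2971 transcripts with probes at least 300 bases apart, its median deviation was 0.26, -0.13, -0.41 and -0.25 on Tbx5-/+ 1, 5, 6 and 7 and 0.32, 0.10, 0.001 and 0.10 on the Tbx5 WT arrays (exact two-sided permutation test over 70 assignments, p = 0.171). Tbx5-/+ 6, the array with the lowest value, was the lowest of the 8 arrays for 6 of 18 Hox genes, Hoxa3, Hoxa9, Hoxb1, Hoxb4 and Hoxd1 among them, and for 38.3% of all probes tested. With this measure as a covariate, an alternative added after the data were seen, 6 of 18 genes were lower at an unadjusted p under 0.05, against 14.3% of all probes. These were Hoxa4, Hoxa5, Hoxb3, Hoxb4, Hoxb5 and Hoxd1, so that Hoxb4 (-1.29, unadjusted p = 0.00175) and Hoxd1 (-0.65, unadjusted p = 0.00856) were the 2 genes found by both fits. No gene passed the adjusted p there.

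Hox proteins bind DNA with partners of the TALE class, the Pbx, Meis and Pknox homeodomain proteins. All 9 TALE genes were tested, and none passed the adjusted p. Pbx3, a Hox partner in the hindbrain, was at 12.08, 12.26, 11.25 and 11.60 on Tbx5-/+ 1, 5, 6 and 7 and at 12.81, 12.93, 12.52 and 13.05 on the Tbx5 WT arrays. The groups did not overlap, and the difference was -1.03 (adjusted p = 0.105), with -0.85 at its other tested probe. Without Tbx5-/+ 1 the brightest Pbx3 probe differed by -1.12 (adjusted p = 0.0268 in limma), when 12.1% of all probes passed with a lower value. Meis1 differed by -0.09 at its brightest probe and by -1.46 at its other one, and Meis2 by -0.22, with -0.38 to 0.11 at its other probes. The median over the 9 genes was -0.25.

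Genes that act upstream of the clusters were next compared. Of 11 activators (Cdx factors, retinoic acid receptors and the retinoic acid synthase Aldh1a2 among them), 5 were tested and none reached an unadjusted p under 0.05 in either direction, while Cdx1 and Cdx4 were well above background on no array. Aldh1a2 was at 11.50, 14.40, 14.64 and 14.29 on Tbx5-/+ 1, 5, 6 and 7 and at 13.78, 13.81, 13.19 and 13.97 on the Tbx5 WT arrays. Its difference of 0.02 became 0.76 without Tbx5-/+ 1, the lowest array (adjusted p = 0.0456 in limma, when 7.04% of all probes passed with a higher value). Rarb, a retinoic acid receptor that is itself switched on by retinoic acid, differed by -0.40. Egr2 was higher on all mutant arrays, by 1.37 (adjusted p = 0.279), with Tbx5-/+ 1 far above the rest, and by 0.46 without that array. Of the Cyp26 genes, which break retinoic acid down, Cyp26a1 differed by 0.10. Cyp26b1 was at 12.53, 10.35, 9.86 and 10.61 on the Tbx5-/+ arrays and at 11.42, 11.28, 10.70 and 11.37 on the Tbx5 WT arrays of the same numbers. Its difference of -0.35 became -0.92 without Tbx5-/+ 1, the highest array (adjusted p = 0.0396 in limma, when 12.1% of all probes passed with a lower value).

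Among 15 chromatin regulators that keep Hox clusters on or off, all were tested, 9 were lower and 6 higher, and 4 (Kmt2a, Kdm6a, Kdm6b and Cbx2) were lower at an unadjusted p under 0.05, against 18.5% of all probes. Their differences were -0.75, -1.01, -1.28 and -1.09, with -0.40 at the other Cbx2 probe. Kmt2a, Kdm6a and Kdm6b belong to the activating side and Cbx2 to the Polycomb side. Suz12, a Polycomb subunit, differed by -0.31 without overlap. The median over the 15 genes was -0.31, and none passed the adjusted p with all arrays. Kdm6a, Kdm6b and Cbx2 passed an adjusted p of 0.05 in limma without Tbx5-/+ 1, with lower values (-1.28, -1.66 and -1.35). Bmi1 passed in the same fit with a higher value (0.65). Of all probes, 12.1% passed there with a lower value and 7.04% with a higher one.

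The genes that flank the clusters without being Hox genes gave a comparison by position. Of 17 neighbours, 12 were tested, 1 was lower (Snx11, next to HoxB, -1.01) and 1 higher (Hnrnpa1, near HoxC, 0.67) at an unadjusted p under 0.05, against 18.5% of all probes lower and 3.38% higher. Other probes of both genes went the opposite way, with 0.20 for Snx11 and -0.30 to -0.14 for Hnrnpa1. Without Tbx5-/+ 1, Snx11 and Cbx5 passed an adjusted p of 0.05 with a lower value (-1.36 and -0.71) and Hnrnpa1 and Mtx2 with a higher one (0.94 and 0.97). Of all probes, 12.1% then passed with a lower value and 7.04% with a higher one. The median over the 12 brightest probes was 0.18, against -0.19 over all probes, dim ones included. Other probes differed from the brightest in sign for Cbx5 (-0.51 against 0.15 to 0.48) and Lnpk (0.17 against -0.64 to -0.22). Those of Atf2 ranged from -0.55 to 0.12 (brightest 0.19), and that of Smug1 was -1.15 (brightest -0.03). Those of Skap2 and Mtx2 kept the sign.

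The 250 bases before the annotated start were searched in RefSeq (GRCm38.p6) for motifs bound by T-box and by Hox proteins. The table held 24 starts of 22 Hox genes, including Hoxb1 and Hoxb4. AGGTGT, the core bound by T-box proteins, was searched on both strands. It was found before at least 1 start of 3 of these 22 genes (Hoxa10, Hoxb4 and Hoxd9). Of all 32851 starts, 11.8% had it. TGATNNAT, bound by Hox and Pbx together, was found before at least 1 start of 4 of the 22 genes (Hoxa2, Hoxb1, Hoxb8 and Hoxd11). Of all starts, 7.68% had it. Hox matches were counted by gene and all matches by start, so the Hox counts cannot be set against these shares directly. The 2 motifs do not contain each other. In the sequences below, capitals mark the match, which for Hoxb4 is on the minus strand, beginning 14 bases before the start, and for Hoxb1 on the plus strand, beginning 162 bases before it.
Hoxb4, chr11:96318017-96318266, plus strand: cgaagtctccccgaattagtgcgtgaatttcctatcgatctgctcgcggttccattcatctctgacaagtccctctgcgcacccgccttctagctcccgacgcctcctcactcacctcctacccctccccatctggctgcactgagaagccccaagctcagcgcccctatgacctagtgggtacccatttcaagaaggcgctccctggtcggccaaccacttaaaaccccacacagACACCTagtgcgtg
Hoxb1, chr11:96365508-96365757, plus strand: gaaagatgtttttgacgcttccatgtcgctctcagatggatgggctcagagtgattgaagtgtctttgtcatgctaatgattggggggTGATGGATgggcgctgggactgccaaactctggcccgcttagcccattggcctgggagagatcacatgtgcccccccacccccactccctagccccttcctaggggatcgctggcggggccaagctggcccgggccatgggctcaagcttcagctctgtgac
A match is a run of letters and not evidence of binding.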

How the data were processed

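RNA of 4 Tbx5-/+ and 4 Tbx5 WT pools was labelled with Cy3 and hybridized to 1-colour Agilent arrays, 1 array a pool. The deposited scanner files hold spot intensity values on a linear scale, with marks for outlier spots and spots well above background, from Agilent Feature Extraction 10.5.1.1 (submitters' processing notes). A second deposited table gives the same arrays as log2 values, after background correction and VSN by the authors. Here background was subtracted from mean signals, outlier spots were left out, repeat spots averaged, and VSN programmed in R 4.3.3 (90% of probes kept, 7 iterations); r with the deposited values was at least 0.9999 on each array. limma 3.58.1 was fitted on 20028 probes, unpaired and two-sided, with Benjamini-Hochberg adjustment over all of them. A gene was taken at its brightest tested probe. Deviations of same-numbered pools from their group means correlated (r = 0.438, 0.400, 0.593 and 0.137 for numbers 1, 5, 6 and 7), so a fit with the number as a block is given where it changes a call. Tbx5-/+ 7 correlated more with Tbx5 WT 6 (r = 0.372). Same-numbered pools also lay at neighbouring positions of a slide, so number and position cannot be told apart. Tested Hox genes were named, with full statistics for those at an unadjusted p under 0.05 or without overlap at any tested probe. Members, lists and rules were chosen with earlier results of these data known. Scripts were tested on simulated data. Hoxc11 was not analysed here, and 1 tested Hox gene and 1 TALE gene are not reported here. The number of arrays limits the precision.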

Additional observations from a re-analysis of the deposited data

Results flagged for a closer look

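Each of the 22 Hox probes tested was checked in both groups for an array standing apart from the other 3 (44 checks, of which chance flags about 1 in 20), and 3 values did. The brightest Hoxa4 probe was at 7.91 on Tbx5-/+ 1, against 10.02 on the next mutant array. Hoxb7 was at 5.98 on Tbx5-/+ 1, against 8.77 on the next. Hoxb4 was at 7.23 on Tbx5 WT 6, against 7.97 on the next wild-type array, and this low array still lay above every mutant array. Both flags among the mutant arrays fell on Tbx5-/+ 1 and in paralog groups 4 to 7.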

How the results depend on the processing

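The count of Hox genes lower at an unadjusted p under 0.05 (6) ranged from 4 to 9 over 20 alternatives. The share of all probes lower at this level ranged from 6.65% to 34.7% over them. Counts are of 18 genes, except 38 with no filter on dim probes and 20 with the filter of the study. The count without overlap (4) ranged from 3 to 5 over 19 alternatives. Hoxb4, Hoxd1, Hoxa3, Hoxa9, Hoxb1 and Hoxc5 kept their direction in 22 of 22. The count called at an adjusted p of 0.05 (0) became 1 with the filter of the study (Hoxb4), when 205 of 11213 probes passed. It became 6 with the replicate block (when 2218 of 20028 probes passed) and 8 with array weights (8716). With 1 array left out it was 0 to 5, the 5 without Tbx5-/+ 1 (when 3840 of all probes passed). Beside those 6 genes the replicate block took the second probes of Hoxa4 and Hoxb3 past the threshold and changed no other call. The count higher at an unadjusted p under 0.05 (0) became 1 with no filter on dim probes, 1 with array weights and 0 to 1 with 1 array left out. The median Hox difference (-0.73) was -0.53 with the 75th percentile of the processed signal, -0.47 with normexp and quantile normalization, -0.41 with each array centred on its median, -0.073 over the 38 genes with no filter on dim probes, -0.50 with array weights, -0.47 within the slide of numbers 6 and 7, and -1.02 to -0.37 with 1 array left out.

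Small differences changed sign. Hoxa2 became 0.21, 0.094 and 0.18, with percentile scaling, quantile normalization and centring. With 1 array left out, Hoxa2 ranged from -0.37 to 0.021, Hoxb2 from -0.017 to 0.19, Hoxb5 from -1.27 to 0.017 and Hoxd4 from -0.45 to 0.44. Hoxd4 was -0.52 with array weights. Within the slide of numbers 1 and 5, Hoxa2 was 0.28, Hoxb7 -0.42 and Hoxd4 -0.038. With the 5′ to 3′ covariate, added after the data were seen, Hoxa2 was 0.078, Hoxb7 -0.37, Hoxd4 -0.64 and the opposite-strand Hoxb2 probe -0.33. The cause was not tested. Genes near background, such as Hoxb4 in Tbx5-/+, are limited by signal over background.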
